A study of Rattus norvegicus with 6 samples.

Results

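The red cell membrane and blood group genes described here are Sptb, Ank1, Epb41, Epb42, Slc4a1, Rhd, Rhag, Kel and Xk, 9 genes followed in rat renal cortex through every array probe whose RefSeq accession belongs to them. Of the 9 genes, 7 had a probe by this match, with 12 probes among the 61537 non-control probes of the array, and 6 passed the filter on dim probes, as 6 of 12130 genes tested. Ank1 and Epb41 had no probe matched by accession and were not analysed here. The animals were male Sprague-Dawley rats (Crl:CD(SD)), bought at 5 weeks of age and kept on a basal diet. Of the 6 rats, 3 controls received corn oil for 4 weeks, and 3 treated animals received 4-hydroxy-m-phenylenediammonium dichloride, a salt of the aromatic diamine 2,4-diaminophenol, at 100 mg/kg/day for 4 weeks. The vehicle of the treated animals and their age at sampling are not given in the sources used here. Total RNA of the cortex of each animal was read on 1 Cy3 array. The set was proposed with the treated and control levels of its genes in view and counts as selected on the difference between these groups, so the values of its genes are given as a description, with no test.

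Under the plasma membrane of the red cell lies a lattice of spectrin, of which Sptb encodes the beta chain. Ankyrin (Ank1) ties this lattice to the anion exchanger band 3 (Slc4a1) with the help of protein 4.2 (Epb42), and protein 4.1 (Epb41) ties it to actin and to glycophorin. The Rh proteins (Rhd, Rhag) sit in the same membrane complex and are related to ammonia channels of the kidney, whereas the Kell glycoprotein (Kel), a metalloendopeptidase, is bound to XK (Xk), a membrane protein linked to lipid scrambling. Most of these transcripts belong to erythroid precursors and young red cells, but a shorter Slc4a1 product is also the basolateral chloride-bicarbonate exchanger of type A intercalated cells of the collecting duct.

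The Kell gene, Rhd and Epb42 showed the widest differences between the groups, and Slc4a1, Xk and Sptb small ones. In treated cortex the mean level was 3.49-fold that of controls for Rhd and 3.01-fold for Epb42. That of Kel, with no control spot well above background, was at least 3.02-fold higher at its brightest probe. This bound, 1.59 in log2, is for the processed signal, and with a normexp background the log2 difference of Kel was 0.76. Slc4a1 differed 1.32-fold, Xk 1.28-fold and Sptb 1.20-fold. All 3 treated values lay above all 3 control values for 5 of the 6 genes that passed the filter, while 14.1% of all genes tested showed that pattern. That count describes the contrast that proposed the genes, and nothing is read from it. Kel passed the filter through the treated group alone, a route that favours genes higher there. With limma 0 of the 6 had an adjusted p under 0.05 (5 had an unadjusted p under 0.05, as had 25.0% of all genes tested), where 4.38% of all genes tested were called in either direction, 3.05% higher and 1.33% lower in treated animals. With a normexp background, in place of the processed signal, the groups did not overlap for 3 of the 6. Calls were gained by Slc4a1 with a normexp background (adjusted p = 0.030) and with an intensity trend in limma's variance prior (adjusted p = 0.046), and by Rhd without treated animal 1 (adjusted p = 0.023), and they too describe the contrast that proposed the genes. The control arrays shared 1 slide and the treated arrays another, so that for every value below an effect of the slide and one of the compound cannot be told apart. In these bulk samples more red cells or precursors in the cortex and more RNA per such cell cannot be told apart either.

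Promoter sequences are shown for the genes with the widest differences and for Sptb, because erythroid genes are commonly bound by GATA factors and the words sought can then be seen in place. The GATA word was sought with A or T before it and A or G after it (AGATAA, for example, or TGATAG) on both strands of the 250 bases before the start of each gene in RefSeq's promoter table (build GRCr8), and are in capitals below; matches did not overlap each other in these sequences.
Rhd (chr5:152370950-152371199, + strand): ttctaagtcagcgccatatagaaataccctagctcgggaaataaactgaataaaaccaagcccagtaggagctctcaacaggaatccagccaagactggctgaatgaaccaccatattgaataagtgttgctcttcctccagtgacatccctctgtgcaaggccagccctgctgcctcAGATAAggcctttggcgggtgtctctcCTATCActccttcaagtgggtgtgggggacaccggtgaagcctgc
Epb42 (chr3:128451684-128451933, - strand): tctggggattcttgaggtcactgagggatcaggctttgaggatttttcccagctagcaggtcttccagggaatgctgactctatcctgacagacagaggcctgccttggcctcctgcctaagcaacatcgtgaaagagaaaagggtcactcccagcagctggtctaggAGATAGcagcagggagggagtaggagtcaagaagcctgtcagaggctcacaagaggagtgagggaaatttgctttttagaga
Kel (chr4:71551774-71552023, - strand): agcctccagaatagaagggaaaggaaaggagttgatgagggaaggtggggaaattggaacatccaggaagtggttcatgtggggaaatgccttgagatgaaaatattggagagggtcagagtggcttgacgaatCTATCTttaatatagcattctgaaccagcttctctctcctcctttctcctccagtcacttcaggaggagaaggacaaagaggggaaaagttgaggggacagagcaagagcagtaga
Sptb (chr6:101170279-101170528, - strand): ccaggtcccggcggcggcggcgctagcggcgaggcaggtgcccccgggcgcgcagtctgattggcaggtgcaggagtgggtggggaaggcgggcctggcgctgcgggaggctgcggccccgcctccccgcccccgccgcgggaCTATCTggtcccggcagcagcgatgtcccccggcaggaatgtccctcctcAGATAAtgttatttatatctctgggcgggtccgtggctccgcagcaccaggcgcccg
Of the 9 genes, 7 had an entry and 5 of these held at least 1 such word, while 27.0% of all 33469 promoters of the table did. Rhd held AGATAA at 72 to 67 bases before its start and TGATAG, on the other strand, at 45 to 40 bases. Epb42 held AGATAG at 82 to 77 bases before the start, and Kel held it on the other strand at 116 to 111 bases. Sptb, whose level differed least among the 6, also held 2 words, AGATAA at 57 to 52 bases and, further from the start, AGATAG on the other strand, as 6.42% of all promoters held at least 2. Rhag held TGATAA on the other strand at 31 to 26 bases, and the windows of Epb41 and Xk held none of these words. The word CACCC, sought for factors of the Klf family on both strands, was in 3 of the 7 windows (Rhd at 56 to 52 and at 28 to 24 bases, Sptb and Rhag) and in 49.2% of all. No match overlapped a GATA word in these windows. A match is a string of letters and not a shown site.

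**Figure D1:**
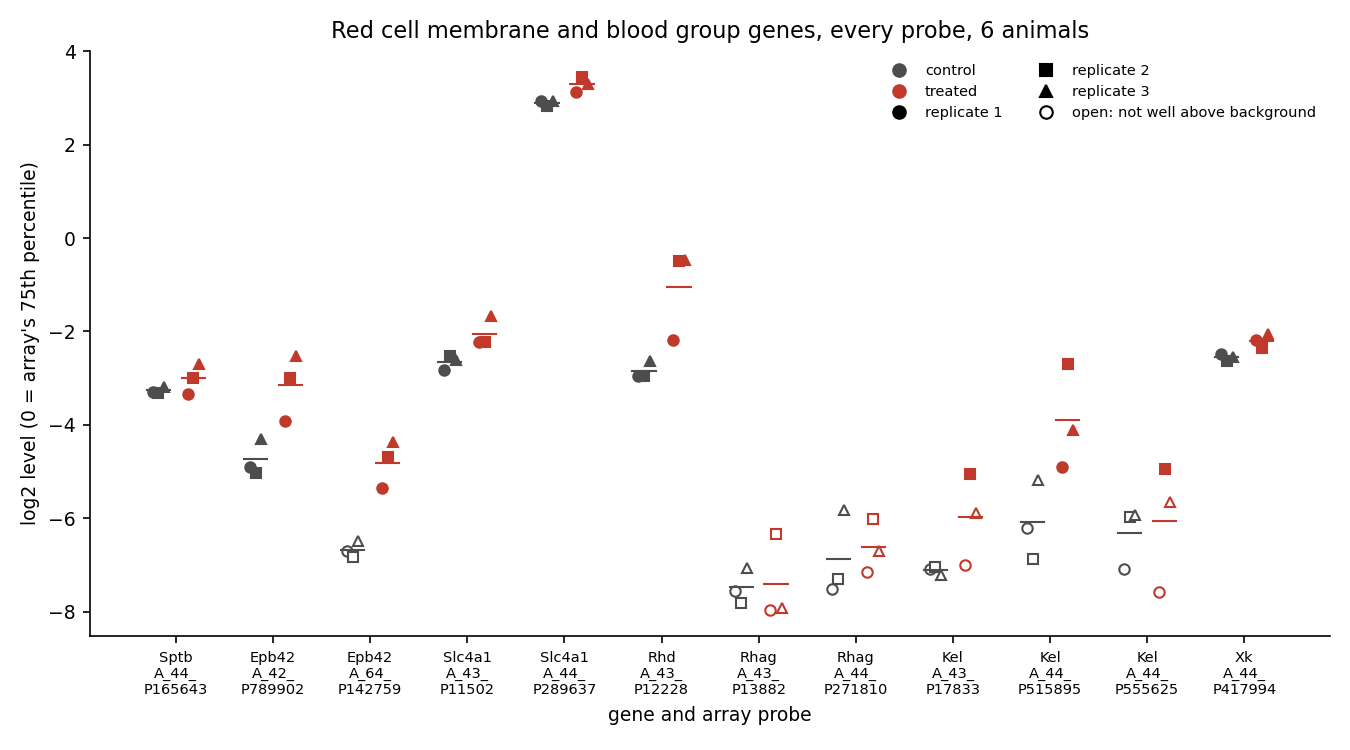
Log2 level of each of the 12 probes in each animal (y axis, 0 is the array's 75th percentile), controls in grey and treated animals in red, with the replicate number as the shape, group means as bars and open symbols for spots not well above background. Rhd in treated animals 2 and 3 sits at -0.49 and -0.47 while treated animal 1 is at -2.17; levels of different probes are not comparable with each other.

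Among the genes of the spectrin lattice and its anchors, Sptb, the beta spectrin of red cells, had log2 levels of -3.29, -3.31 and -3.20 in controls and -3.33, -2.99 and -2.69 in treated animals. Here and throughout, a level is log2 of the spot signal relative to the 75th percentile of its array. The groups overlapped, since treated animal 1 lay below every control. The difference of the means was 0.26 with a standard error (SE) of 0.16 from the limma fit over all genes, which pools the spread of genes. Epb42, which steadies the contact of ankyrin and band 3, stood at -4.90, -5.02 and -4.30 in controls and at -3.92, -3.00 and -2.52 in treated animals at its brighter probe (difference 1.59, SE 0.39). The groups did not overlap, and the lowest treated animal was 1 and the highest 3. The second Epb42 probe had -6.70, -6.84 and -6.48 in controls, none of them well above background, and -5.35, -4.70 and -4.37 in treated animals, all well above it, which is at least 1.62-fold. Both probes put the treated animals in the same order. With a normexp background the Epb42 difference at the brighter probe was 0.78 and the groups overlapped.

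Slc4a1, band 3, was measured by a pair of probes. At the brighter one its levels were 2.92, 2.82 and 2.93 in controls and 3.12, 3.44 and 3.31 in treated animals, a difference of 0.40 (SE 0.09). At the other probe they were -2.82, -2.53 and -2.62 in controls and -2.23, -2.23 and -1.67 in treated animals, a difference of 0.61. Treated animals were higher at both, with no overlap, and the highest was animal 2 at the first probe and animal 3 at the second. The files used here give no probe sequence, so which of the erythroid and kidney transcripts of Slc4a1 each probe reads is not known here.

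The Rh genes were read unevenly. Rhd, the carrier of the Rh antigen, had levels of -2.95, -2.95 and -2.64 in controls and -2.17, -0.49 and -0.47 in treated animals. Treated animals 2 and 3 stood together and well apart from animal 1, which was itself above every control. The difference was 1.80 (SE 0.48), and it was 2.37 without treated animal 1 and 1.51 without treated animal 3. It lay above the difference of 99.8% of all genes tested, a rank in the contrast that proposed the set, and nothing is read from it. Rhag, the Rh-associated glycoprotein without which Rh proteins do not reach the membrane, was not well above background on any of the 6 arrays at either of its probes, and no difference is given for it.

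Kel, the Kell endopeptidase, had 3 probes. Its brightest stood at -6.21, -6.86 and -5.18 in controls, none well above background, and at -4.89, -2.71 and -4.12 in treated animals, all well above it. Treated animal 2 was the highest and animal 1 the lowest, close to control animal 3. The measured difference was 2.18 (SE 0.67), and 0.76 with a normexp background, under which the groups overlapped. At the other probes only treated animal 2 was well above background, at -5.06 and -4.94. Their measured differences were 1.13, with no overlap, and 0.26, with overlap and treated animal 1, at -7.59, below every control. Xk, the partner of Kell, had levels of -2.48, -2.63 and -2.54 in controls and -2.18, -2.35 and -2.05 in treated animals. The difference was 0.35 (SE 0.09), with no overlap, and here treated animal 2 was the lowest of its group, unlike in Kel.

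**Figure D2:**
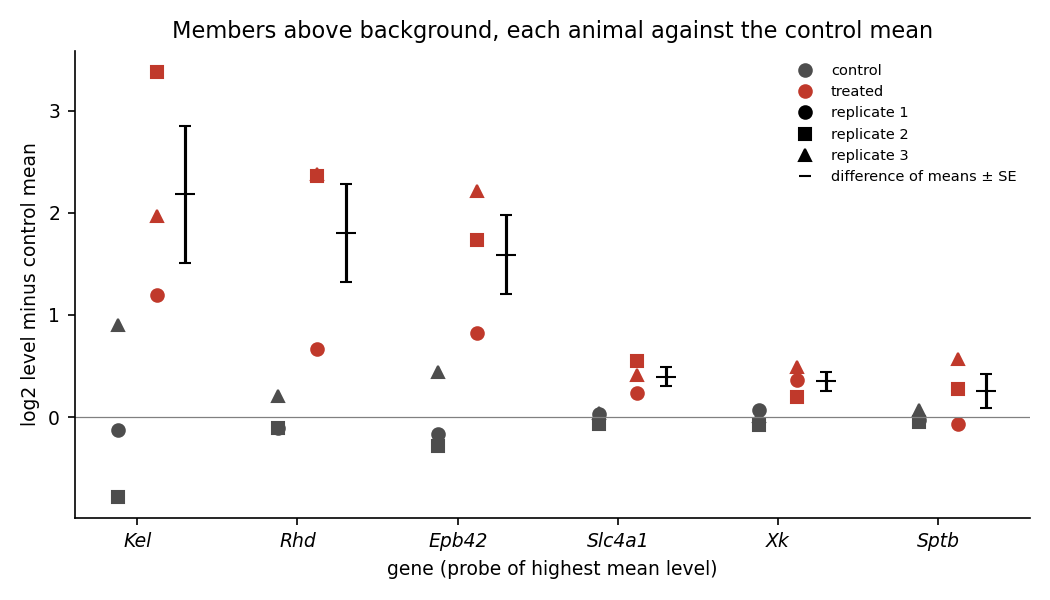
Log2 level of the 6 genes that passed the filter in each animal minus the control mean (y axis), at the probe of highest mean level, with controls in grey, treated animals in red and the difference of means ± SE in black. Treated animal 1 is the lowest treated animal for 5 genes and treated animal 2 for Xk.

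Within each group the lowest animal was mostly the same across the 6 genes. Treated animal 1 had the lowest treated value for 5 of the 6 genes, Xk being the exception. Among the 1708 genes tested in which every treated value exceeded every control value, animal 1 was the lowest treated animal in 37.8%, and among the 126 of these with at least a 2-fold difference in 46.0%. Relative to the control means, the mean of the 6 genes was 0.54 in treated animal 1, 1.41 in animal 2 and 1.34 in animal 3. In controls it was -0.051, -0.23 and 0.28 in animals 1, 2 and 3, and control animal 2 was the lowest control for all 6 genes, although level with animal 1 in Rhd. Control animal 3 was the highest control for 5 of the 6, and Xk was highest in control animal 1. The lowest level well above background on each array had the same order in controls, at -5.59, -5.80 and -5.11 in animals 1, 2 and 3. In treated animals it was -5.95, -5.92 and -5.88, also lowest in animal 1. The part of the arrays in these orders was not tested.

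The genes whose pattern over the 6 arrays was most like the mean z-score of the 6 genes were Cd52, Or4f53b, Nox4, Itm2b, Ephx1, Car1, Ctsl and Atmin, with Pearson correlations from 0.984 to 0.998. Since the groups differ, such a correlation follows in part from the difference between them, and 342 of 12124 other genes (2.82%) had a correlation of at least 0.9. Or4f53b stood at -5.88, -5.97 and -5.71 in controls, each below the lowest level well above background of its array. It passed the filter through the treated group alone, and the part of the background in its likeness was not tested. Car1, carbonic anhydrase 1, an abundant enzyme of red cells, had levels of -3.09, -3.29 and -3.00 in controls and -2.90, -2.66 and -2.53 in treated animals. Cd52, a surface glycoprotein of lymphocytes, had the highest correlation and stood at -1.98, -2.43 and -1.62 in controls and -0.88, 0.93 and 1.17 in treated animals. Its treated animals divided as those of Rhd did, with animal 1 apart from animals 2 and 3. Nox4, an NADPH oxidase of the kidney, had levels of 1.60, 1.45 and 1.63 in controls and 1.85, 2.12 and 2.14 in treated animals.

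**Figure D3:**
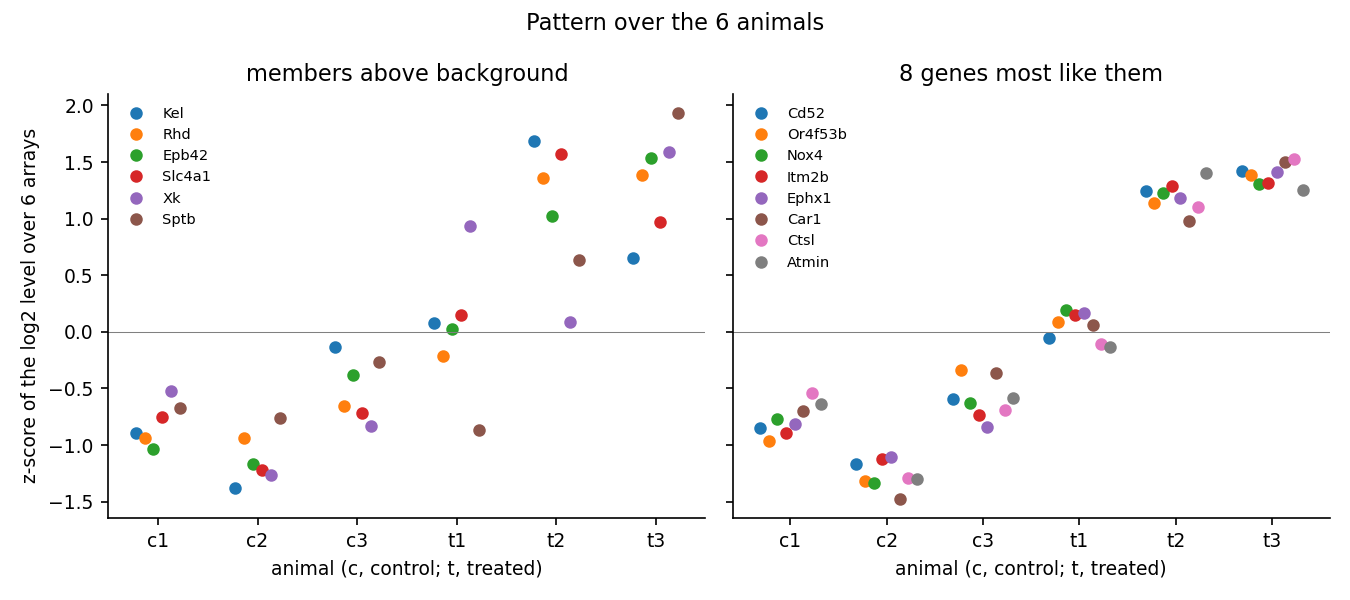
Z-scores of the log2 level over the 6 arrays (y axis) by animal (x axis), for the 6 genes that passed the filter on the left and the 8 genes most like their mean pattern on the right. On both sides control animal 2 is low, and treated animal 1 lies between the controls and the other treated animals for most genes; the 8 genes were chosen for this likeness.

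Other genes of the red cell membrane and its skeleton differed in both directions. Of 26 listed, 23 had a probe and 22 were tested. With limma 1 was higher, 1 was lower and 20 did not pass at an adjusted p under 0.05, and the median log2 difference was -0.066 against -0.030 over all genes tested. Aqp1, the water channel that red cells share with the proximal tubule, fell from 6.99 to 6.41 (1.49-fold lower, adjusted p = 0.034). Add2, the beta adducin that caps actin at the lattice, is named after its values were seen. Its levels were -3.70, -3.61 and -3.93 in controls and -3.38, -1.76 and -1.18 in treated animals (log2 difference 1.64, SE 0.56, adjusted p = 0.145), while its other probe did not pass the filter. Add2 thus had the order of treated animals seen in Epb42, while Gypc, the glycophorin that holds protein 4.1, had a difference of 0.004 (adjusted p = 0.990) and the adducins Add1 and Add3 differences of 0.15 and 0.057 (adjusted p = 0.296 and 0.758).

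Of 33 other carriers of blood group antigens and enzymes that build them, 26 were tested, of which 1 was higher and 1 lower, with a median of -0.023. Abcc4, an efflux pump that carries the PEL antigen, rose 2.21-fold (log2 difference 1.14, SE 0.15, limma adjusted p = 0.029), and Aqp1, the Colton antigen, was the one that fell. The other 24 did not pass. In the 6 fits that each left out 1 array, Abcc4 had an adjusted p from 0.045 to 0.095 and Aqp1 one from 0.073 to 0.110. Abcc4 kept its call only without treated animal 1, and Add2, of the skeleton list, was called in that fit as well. Fut1 and Fut2, fucosyltransferases of the H antigen, were not well above background on any array.

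**Figure D4:**
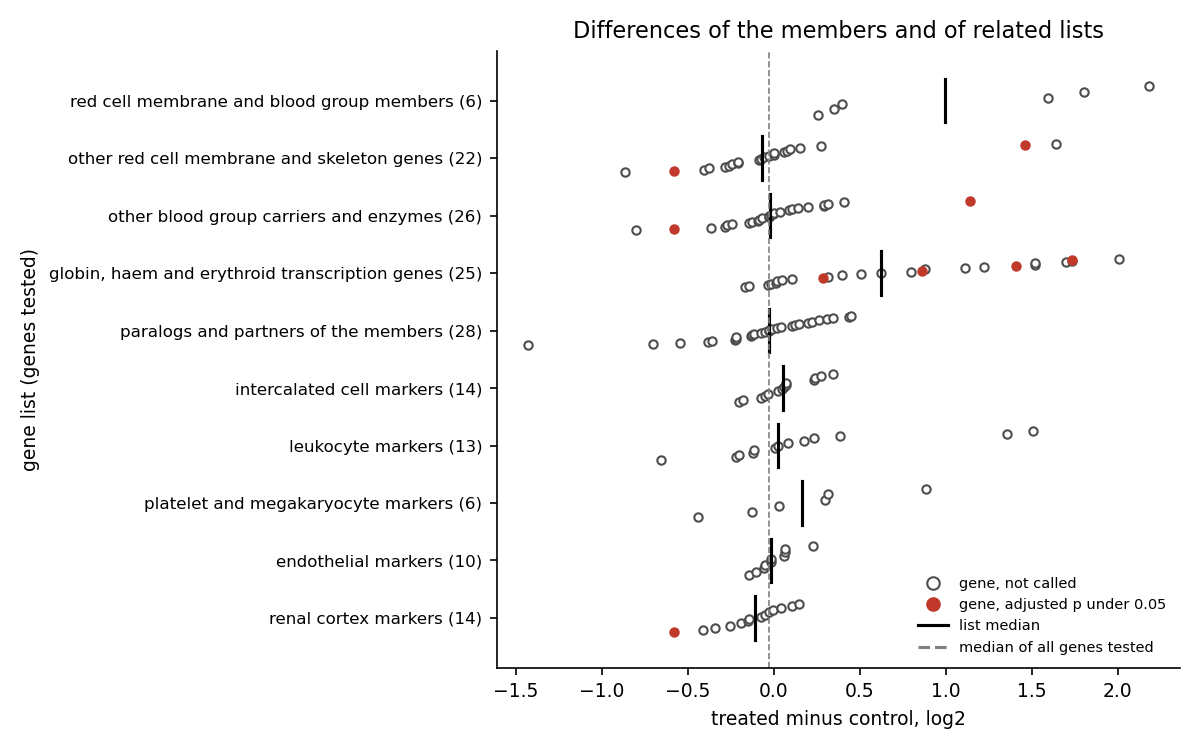
Treated minus control difference on the log2 scale (x axis) of every tested gene in the red cell membrane and blood group set and in 9 related lists (y axis, number tested in brackets), with list medians as bars, called genes in red and the median of all genes tested as a dashed line. The globin, haem and erythroid transcription genes have a median of 0.63 and the paralogs one of -0.029; a gene may stand in several lists.

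Genes of globin, haem and erythroid transcription had a higher mean in treated cortex in 21 of 25 cases. The share with a higher mean over all genes tested was not counted. The globin genes among the 25, Hba-a1, Hba-a3, Hbb, Hbb-b1 and Hbb-bs, are close paralogs counted singly. The counts over the 25 are thus not counts of separate readings. All treated values lay above all control values in 15 of the 25, against 14.1% of all genes tested. Of the 25, 21 were well above background on all 6 arrays. Of 30 listed, 25 were tested. Limma called 4 higher and 0 lower, and the other 21 did not pass. Over all 25, an unadjusted p under 0.05 was found for 15 with higher and 1 with lower means, against 25.0% of all genes tested in either direction. The median log2 difference was 0.63, or 0.51 with Gata1 at its bound, against -0.030 over all genes tested. It was 0.25 with a normexp background, 0.40 with the filter on all 6 arrays and 0.43 with the mean of a gene's probes. The summed linear level was 860 to 1123 in controls and 1317 to 2426 in treated animals, and the bright globin genes dominate this sum. The alpha globin gene Hba-a1 had a mean log2 level of 8.32 in controls and 9.20 in treated animals, against 0.48 and 2.18 for Alas2. The mean of the list relative to controls was 0.37, 0.86 and 0.98 in treated animals 1, 2 and 3, so animal 1 was again the lowest, as in 18 of the 25 genes. The 4 called genes were Gata1, Nfe2, Trim58 and Slc25a37. Gata1, with 0 of 3 control spots well above background, and Nfe2, with 2 of 3, passed the filter through the treated group alone. This route favours genes higher there, so their calls are not counted as support. With a filter on all 6 arrays, which both fail, 2 genes of the list were called. For Gata1, the master transcription factor of erythroid cells, the bound was a log2 difference of 0.13, and with a normexp background the groups overlapped. Nfe2, an erythroid and megakaryocyte transcription factor, had a measured log2 difference of 1.41 (SE 0.25, limma adjusted p = 0.044). Trim58, a ubiquitin ligase of late erythroid cells, rose 1.82-fold (adjusted p = 0.027) at its brighter probe, whereas its other probe, well above background on 1 control array and on no treated array, had a difference of -0.55. Slc25a37, the iron carrier of erythroid mitochondria, rose 1.22-fold (adjusted p = 0.049). With a normexp background all 4 calls were lost, with log2 differences of 0.24 for Gata1, 0.42 for Nfe2 (adjusted p = 0.074), 0.35 for Trim58 (adjusted p = 0.074) and 0.15 for Slc25a37, whose groups overlapped, and the 1 gene called was Hbb, a beta globin gene. Each of the 4 calls was lost also without any 1 of the 6 arrays, where 0 or 2 genes of the list were called. The 2, called without treated animal 1, were Alas2 and Hbb-bs, of haem synthesis and beta globin. In controls the list's mean was 0.081, 0.035 and -0.12 in animals 1, 2 and 3, an order unlike that of the membrane genes, which were highest in control animal 3.

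Close relatives and binding partners of the 9 genes, many of them genes of the kidney itself, had differences on both sides of 0. Of 39 paralogs and partners, 28 were tested, and with limma 0 were called. An unadjusted p under 0.05 was found for 7, of which 4 had higher and 3 lower means, against 25.0% of all genes tested. The median of the 28 was -0.029. The kidney relatives of the Rh proteins, the ammonia channels Rhbg and Rhcg, are named after their values were seen and did not pass. Rhbg differed by -0.052 (SE 0.11, adjusted p = 0.805) and Rhcg by -0.075 (SE 0.12, adjusted p = 0.738). Sptan1, the alpha spectrin of other tissues, differed by 0.018 (SE 0.080, adjusted p = 0.917), and Ank3, an ankyrin of epithelia, by 0.20 (SE 0.097, adjusted p = 0.275). Nearest to the threshold were Vps13a, the lipid transfer protein that binds XK, and the sodium-bicarbonate transporter gene Slc4a10. Vps13a had levels of 0.67, 0.66 and 0.90 in controls and 1.26, 1.09 and 1.24 in treated animals (log2 difference 0.45, SE 0.092, adjusted p = 0.057), and Slc4a10 a difference of 0.44 (adjusted p = 0.058). The other Vps13a probes differed by 0.43 and -0.064, so its probes disagree. Vps13a passed with a normexp background (adjusted p = 0.023).

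Because Slc4a1 is also a gene of intercalated cells, markers of these cells are given beside it. Of 15 listed, 14 were tested, and with limma 0 were called. An unadjusted p under 0.05 was found for 3, with 2 higher and 1 lower in the mean, against 25.0% of all genes tested. The median of the 14 was 0.053. Car2, the carbonic anhydrase shared by intercalated cells and red cells, differed by 0.27 (SE 0.10, adjusted p = 0.175), and Atp6v1g3, a proton pump subunit of intercalated cells, by -0.18 (SE 0.067, adjusted p = 0.173). Their summed level, linear and relative to the 75th percentile, ran from 205 to 232 in controls and from 203 to 207 in treated animals. The part of intercalated cells in the Slc4a1 difference was not tested.

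Markers of other blood cells and of vessels were set beside the red cell genes in the same way. Of 13 leukocyte markers tested, limma called 0. An unadjusted p under 0.05 was found for 3, of which 2 had higher means, against 25.0% of all genes tested. The summed level of the 13 was 71.6 to 82.0 in controls and 53.0 to 80.2 in treated animals. Elane, of neutrophil granules, was not well above background on any array. S100a8 and S100a9, calcium-binding proteins of neutrophils, both had groups without overlap. The log2 difference of S100a8 was 1.51 (SE 0.42, adjusted p = 0.100), and that of S100a9 was 1.35 (SE 0.36, adjusted p = 0.095). S100a9 stood at -1.57, -1.86 and -0.54 in controls and at -0.29, 0.26 and 0.11 in treated animals. Control animal 3 was its highest control and treated animal 1 its lowest treated. Over the 13 leukocyte markers, however, treated animal 1 was the lowest treated in 3, animal 2 in 7 and animal 3 in 3. Itgam, an integrin of neutrophils and other myeloid cells, was lower in treated animals without overlap (log2 difference -0.66, SE 0.18, limma adjusted p = 0.101), and with a normexp background it was called lower. Lyz2 and Csf1r, of macrophages, had differences of -0.20 (adjusted p = 0.520) and -0.12 (adjusted p = 0.618). Itgam, Lyz2 and Csf1r are named after their values were seen. Of 6 platelet markers and 10 endothelial markers tested, limma called 0 in either list (1 and 0 at an unadjusted p under 0.05). The summed platelet level was 2.12 to 2.43 in controls and 2.17 to 2.67 in treated animals, and the endothelial one 83.4 to 94.1 and 77.5 to 89.2. Gp5, a platelet glycoprotein, differed by 0.30 (adjusted p = 0.098) whereas Ppbp, a platelet chemokine with no control spot well above background, was at least 1.02-fold higher (adjusted p = 0.221). In the endothelial list Kdr and Ehd3 differed by -0.14 (adjusted p = 0.317) and 0.23 (adjusted p = 0.517). The part of leukocytes, platelets and vessels in the differences of the red cell genes was not tested. The tissue label was checked on 14 markers of cortical nephron segments, including Aqp1, Lrp2 and Slc34a1, and all 14 were well above background on all 6 arrays. Of these 14, limma called 0 higher and 1 lower, Aqp1, with a median difference of -0.11 and a summed level of 1790 to 1849 in controls and 1575 to 1662 in treated animals.

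The share of non-control probes well above background differed between the groups without overlap, at 66.0%, 67.7% and 63.1% in controls and 69.6%, 69.0% and 68.9% in treated animals. The lowest level well above background was -5.59, -5.80 and -5.11 in controls and -5.95, -5.92 and -5.88 in treated animals, so that dim probes such as those of Kel, Gata1 and the second of Epb42 were read against a higher floor in controls. The part of this floor in their differences was not tested. Over the arrays the 75th percentile of the signal ran from 837 to 1001, and the correlation of log2 levels was 0.990 to 0.991 within controls, 0.993 to 0.994 within treated animals and 0.985 to 0.991 between them. The spike-in controls had a median difference of -0.13 between the groups over 279 spots, against -0.030 for the median of all genes tested. With 3 arrays a group, the number of arrays limits the precision.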

How the data were processed

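Total RNA of the renal cortex of 6 rats was read on 1-colour Agilent arrays, 3 arrays a group. Each deposited array file holds processed spot intensity values, corrected for background, and median spot and background intensity values, made with Feature Extraction 10.7 per the submitters' processing notes. Values of the deposited table are a linear ratio that followed the processed signal of each array divided by its 75th percentile and was used as an alternative.

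Here the level of a probe was log2 of its processed signal minus log2 of the 75th percentile over the non-control probes of its array. Control spots and outlier spots were left out. Probes were named through RefSeq accessions (28206 of 61537 probes, 15645 genes, names of GRCr8), the brightest probe stood for a gene, and a gene was tested when its probe was well above background on all arrays of at least 1 group (12130 genes). The groups were compared with limma 3.58.1 in R 4.3.3 with Benjamini-Hochberg adjustment over all genes tested at 0.05, after tests on simulated data. For a probe not well above background in a group, the fold is a bound, set against the higher of the lowest signal well above background and the probe's own signal on each array.

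The members and gene lists were chosen with earlier results of these data known. Named by rule are the members, the called genes of each list, otherwise the 2 of smallest p, and the 8 genes most like the members. Other genes are named outside this rule with their values known, among them Gypc, Add1, Add3, Sptan1, Ank3, Hba-a1 and Alas2. The values of 1 called gene of the membrane and skeleton list are not reported here. Same-numbered arrays of the groups had correlations of deviations of -0.118, -0.114 and 0.089. These gave no clear sign that the numbers pair the animals, but with 3 arrays a group they cannot exclude it. Nothing in the labels says more of how the animals were kept apart, so p-values measure the spread between these samples. Alternatives were the background, scaling, filter, probe rule, variance prior, replicate block and each array left out.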

Additional observations from a re-analysis of the deposited data

How the results depend on the processing

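No difference of a member changed sign under any alternative run. Leaving out 1 array at a time gave 1.28 to 1.98 for Epb42, 1.58 to 2.67 for Kel, 1.51 to 2.37 for Rhd, 0.32 to 0.48 for Slc4a1, 0.10 to 0.42 for Sptb and 0.28 to 0.43 for Xk. Under the other alternatives the ranges were 0.78 to 1.73, 0.76 to 2.18, 1.44 to 1.80, 0.36 to 0.51, 0.13 to 0.26 and 0.22 to 0.35 in the same order. With a normexp background the median of the 6 members was 0.62 in place of 0.99 and the groups did not overlap for 3 of them. The median was 0.40 with no filter on dim probes (7 genes) and 0.40 with a filter on all 6 arrays (5 genes), where the set of genes itself changes. Over all genes, 531 were called (370 higher, 161 lower, 69.7% higher). The count was 56 with a fold of at least 2 required, 945 with a normexp background (449 higher, 496 lower, 47.5% higher), 44 with no filter, 836 with an intensity trend in the variance prior (441 higher, 395 lower, 52.8% higher), 292 with the mean of a gene's probes and 2754 probes in a fit over every probe. It was 0 with a replicate block (2547 at an unadjusted p under 0.05). Leaving out 1 array gave 0 to 54 calls with limma: 54 without control animal 2, 46 without treated animal 1 and 0 without control animals 1 or 3 or treated animals 2 or 3 (2437 to 2647 at an unadjusted p under 0.05). Of the globin, haem and erythroid transcription genes (4 called), 2 were called with a fold of at least 2, median scaling, the filter on all 6 arrays or the mean of probes, 1 with normexp or quantile scaling, 0 with no filter or the replicate block, and 0 to 2 with 1 array left out. Of the blood group genes (2 called) and the membrane and skeleton genes (2 called), 1 of each was called with a fold of at least 2, 0 of each with no filter or the replicate block, and 0 to 1 of each with 1 array left out. With the mean of probes 1 skeleton gene was called. Of the renal cortex markers (1 called), 0 were called with a fold of at least 2, no filter, the replicate block or 1 array left out. Among lists with 0 calls, 1 leukocyte marker (Itgam, lower) and 1 paralog (Vps13a) were called with normexp, and 2 paralogs with the trend (Slc4a10 and Vps13a). In the fit over every probe 1 paralog (Vps13a) was called at the brightest probe of its gene, and Tgm2 was called at another probe. The cause of these changes was not tested. The slide and the scan could not be fitted as a block, since each held 1 group, and normexp used median spot signals. Signal over background limits Kel, Rhag and the dimmer probe of Epb42.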
